A study of Mus musculus with 6 samples.

Results

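The enzymes described here break down histidine or make, cleave and pass on the amino acids threonine, glycine and serine. Members were taken by name: Hal, Tdh, Gcat, Gldc, Amt, Shmt1, Shmt2, Mthfd2, Phgdh and Psat1. Of these 10, 9 are measured here among 19938 genes, and Tdh was not analysed here. Each gene was represented by its probeset, a group of probes on the array read as 1 value. Hal was selected on its measured log2 difference between shECAD and control clones in these same samples, and the others were named for their pathway with earlier results of the data known. The group differences of the members are therefore a description and are given without a p-value.

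The study measured mRNA with whole-transcript arrays in 6 induced pluripotent stem (iPS) cell lines of the mouse, each grown from 1 picked colony. All 6 lines came from OG2 embryonic fibroblasts, in which a fluorescent reporter is driven by Oct4 regulatory sequence, and all received retroviruses for Sox2, Klf4, Oct4 and c-Myc. Control clones 2, 3 and 4 also received a short hairpin RNA against luciferase, and shECAD clones 4, 8 and 9 received one against E-cadherin, the product of Cdh1. Cells went onto feeders on day 6 after infection, picking of colonies followed on day 14, and the feeder cells were removed before extraction, per the labels. No age or passage number is given for the lines. Each clone gave 1 array, so n = 3 clones per group throughout. The labels name no separate infections, so the spread between clones is the only error that could be measured.

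Histidine is degraded in a short chain that starts with histidine ammonia-lyase, the product of Hal, and ends with a transfer of a carbon unit to folate. Mouse pluripotent stem cells are known for breaking down threonine in mitochondria through threonine dehydrogenase and Gcat, which yields glycine and acetyl-coenzyme A. Glycine is then cleaved by the glycine cleavage system, of which Gldc and Amt are parts, and serine made by Phgdh and Psat1 feeds the same folate pool through Shmt1, Shmt2 and Mthfd2. The carbon carried by folate is used for nucleotides and for methyl groups.

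On the log2 scale the arrays had medians between 5.11 and 5.30 and SDs between 2.11 and 2.26. The pluripotency regulator gene Pou5f1 read from 10.28 to 10.77 in the 6 clones, above the 75th percentile of every array (at most 7.01), and 0 of 18 pluripotency markers passed the test between groups, set at a limma adjusted p below 0.05. Their median log2 difference was -0.39, 13 of the 18 lay below 0, 5 had groups that did not overlap (all lower in the shECAD clones, as in 12.5% of all genes), and 6 had an unadjusted p below 0.05, as had 18% of all genes. All 6 lines received retroviruses for Oct4, the product of Pou5f1, and for Sox2 and Klf4. The values of these markers may therefore include viral RNA, which was not tested. Cdh1, the target of the hairpin, read 9.18, 9.60 and 9.07 in control clones 2, 3 and 4, against 6.75, 6.92 and 7.81 in shECAD clones 4, 8 and 9. Markers of fibroblasts and feeder cells stood apart. Of the 22 of 23 listed that were measured, 12 were called higher and 0 lower, with a median log2 difference of 0.96. Their mean level was 6.77, 6.35 and 5.77 in control clones 2, 3 and 4, against 7.35, 7.67 and 7.39 in shECAD clones 4, 8 and 9. Array values have no true zero, so no marker can be called absent. In such bulk samples, fewer cells of a type and less RNA per cell cannot be told apart.

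Hal mRNA fell in the shECAD clones and was the 1 member of 9 that passed the threshold of an adjusted p below 0.05 (11.1%, where 3.12% of all genes passed in either direction, made up of 1.23% lower and 1.9% higher). Since the contrast was used to choose Hal, nothing is read from this share. Hal read 6.68, 6.93 and 7.20 in control clones 2, 3 and 4, against 4.56, 4.49 and 4.49 in shECAD clones 4, 8 and 9. Each shECAD clone lay at least 2.11 below the lowest control clone on the log2 scale, so the groups were far from overlapping. Means of 6.93 ± 0.26 for the control and 4.51 ± 0.04 for the shECAD clones (SD, n = 3 each) gave a log2 difference of -2.42 ± 0.17 (SE). On the linear scale the shECAD level was 18.7% of the control level (95% interval 14.4% to 24.2%), or 5.35-fold lower. Hal ranked second lowest of all genes by its log2 difference, after Dpp4. Hal stood between the 71.0 and 77.7 percentiles of genes on the control arrays and between the 28.5 and 32.8 percentiles on the shECAD arrays. The files give no background level for the arrays, so it is not known whether the shECAD values hold any Hal signal above background.

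With each clone left out in turn, which gives no independent support since Hal was selected on these arrays, its log2 difference was lowest without control clone 2 (-2.55) and highest without control clone 4 (-2.29). Fitted with the average fibroblast and feeder marker level as a covariate, it was -1.86 ± 0.34 (SE) and Hal did not pass, as no gene did in that fit. The covariate itself separated the groups (5.77 to 6.77 in the control clones and 7.35 to 7.67 in the shECAD clones). This fit therefore cannot apportion the fall of Hal, and the part of those markers in it was not tested. Hal is known as an enzyme of liver and epidermis. Among 9 measured hepatocyte markers 1 was called (11.1%, beside 3.12% of all genes). The median log2 difference of the 9 was 0.07, and 3 of them lay below 0. The called marker was Apoa2, an apolipoprotein gene. It read 7.06, 7.24 and 7.92 in the control clones and 6.14, 6.10 and 5.59 in the shECAD clones (log2 difference -1.46 ± 0.24 SE, limma adjusted p = 0.01475). The hepatocyte marker Alb read from 3.57 to 3.73 in all 6 clones, below the 25th percentile of each array (at least 3.73 in the deposited table). Among 8 keratinocyte markers 0 were called by limma, and 0 had an unadjusted p below 0.05. Their median level ran from 4.27 to 4.81 in the clones, below the median of all genes (5.29 to 5.49). A fall in markers this low might not be measurable.

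**Figure D1:**
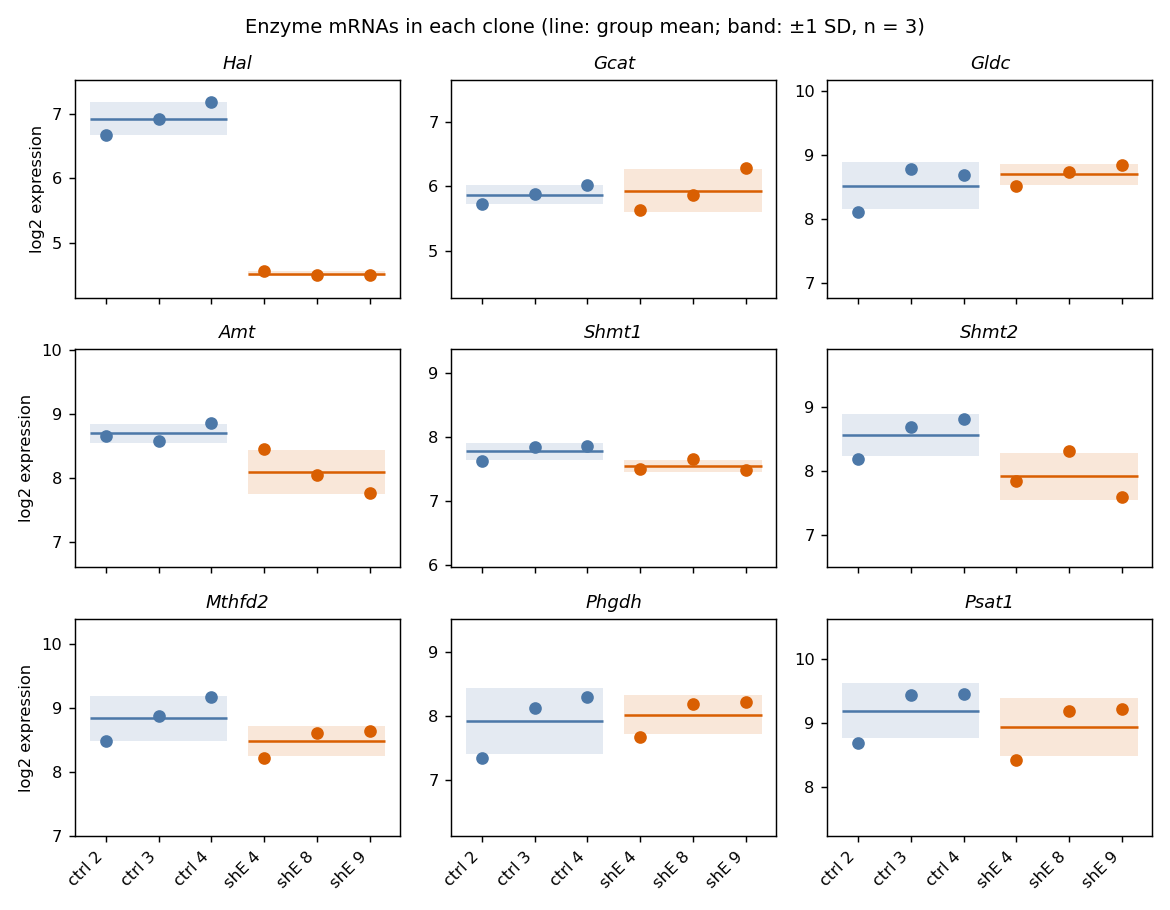
log2 expression of the 9 measured enzymes in each clone, with control clones (ctrl) in blue and shECAD clones (shE) in orange, the group mean as a line and ±1 SD as a band (n = 3). Every panel spans the same height on the log2 scale. Hal is the panel in which the groups lie far apart (6.68 to 7.20 against 4.49 to 4.56), and control clone 2 and shECAD clone 4 sit lowest in their groups for Gcat, Gldc, Mthfd2, Phgdh and Psat1.

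The genes that follow Hal in the histidine pathway did not pass the test. Amdhd1, which encodes a later step of the chain, read 4.12, 4.04 and 4.34 in the control clones and 4.24, 3.97 and 4.21 in the shECAD clones (log2 difference -0.02 ± 0.16 SE, limma adjusted p = 0.956). Uroc1, the gene of the enzyme that takes the product of Hal, had a log2 difference of 0.05 ± 0.20 (SE), and Ftcd, whose product hands the carbon unit to folate, one of 0.11 ± 0.19. Of 8 measured genes of histidine handling, 0 were called by limma and 1 had an unadjusted p below 0.05. This was Carns1, the gene of carnosine synthase, with 4.07, 3.97 and 4.45 in the control clones and 4.71, 4.54 and 4.65 in the shECAD clones (log2 difference 0.47 ± 0.17 SE, limma adjusted p = 0.17). Whether these genes differed from Hal in their response was not tested.

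Amdhd1 is also the next protein-coding gene to Hal on chromosome 10, so the neighbourhood of Hal was read gene by gene. Of the 4 protein-coding genes on either side, 7 of 8 were measured and 0 of these were called by limma (Snrpf was not analysed here). The neighbour on the other side, Lta4h, the gene of a leukotriene-forming hydrolase, read 6.55, 7.19 and 6.63 in the control clones and 6.002, 6.50 and 5.96 in the shECAD clones (log2 difference -0.63 ± 0.22 SE, limma adjusted p = 0.149). Its groups did not overlap but came within 0.1 of each other. Those of Ccdc38 did not overlap either, with 3.80, 3.45 and 3.43 in the control clones and 3.27, 3.13 and 3.31 in the shECAD clones (log2 difference -0.33 ± 0.16 SE, limma adjusted p = 0.321). These are 2 of 7 measured neighbours, both lower in the shECAD clones, beside 12.5% of all genes. The log2 differences of the 6 neighbours other than Lta4h ran from -0.53 (Cdk17) to 0.36 (Elk3). Amdhd1, Ccdc38 and Cfap54 read 4.34 or less in every clone. With the background level unknown, a fall in these genes might not be measurable.

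**Figure D2:**
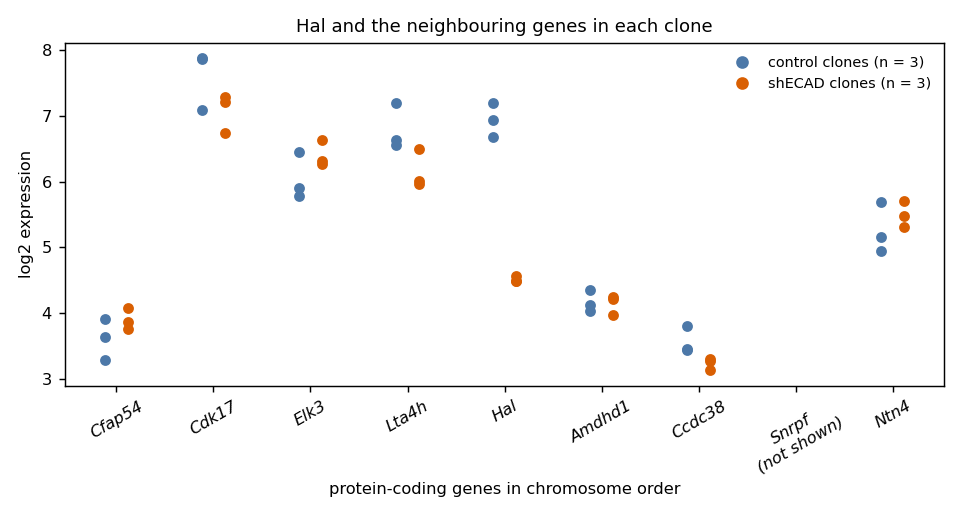
log2 expression of Hal and the measured protein-coding genes around it in chromosome order, 1 point per clone (control in blue, shECAD in orange, n = 3 each). Levels compare within a gene and not between genes. The groups lie apart at Hal, by 2.11 or more, while Amdhd1 overlaps and Lta4h and Ccdc38 show small gaps.

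The 5 genes whose profiles over the 6 clones were most like that of Hal were Dpp4, Cspg4b, Rnf17, Cdh1 and Stat4. They were ranked among the 9969 genes at or above the median level, by the root mean square difference between profiles centred on their own mean. This difference was 0.29 for Dpp4, a cell surface peptidase gene, 0.39 for Cspg4b, 0.43 for Rnf17, a germ cell gene, 0.44 for Cdh1 and 0.45 for Stat4, the gene of a cytokine-response transcription factor. Dpp4 read 7.13, 7.46 and 7.44 in the control clones and 4.70, 5.39 and 4.53 in the shECAD clones. All 5 had groups that did not overlap, lower in the shECAD clones, which is the contrast that chose Hal.

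The threonine and glycine enzymes did not pass the test, and most of their groups overlapped. Gcat, which completes threonine breakdown, read 5.72, 5.88 and 6.02 in control clones 2, 3 and 4, against 5.64, 5.87 and 6.29 in shECAD clones 4, 8 and 9. The shECAD clones enclosed the controls, and the log2 difference was 0.06 ± 0.19 (SE). Its sign turned with centring on array medians (-0.03) and without shECAD clone 9 (-0.12). Gldc, the glycine decarboxylase that opens the glycine cleavage system, read 8.10, 8.79 and 8.68 in the control clones and 8.52, 8.73 and 8.85 in the shECAD clones. Control clone 2 lay apart below the 5 other clones, and the log2 difference was 0.18 ± 0.20 (SE) with all clones and -0.03 without control clone 2.

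Amt, the aminomethyltransferase of the same system, was the member other than Hal whose groups did not overlap. It read 8.66, 8.58 and 8.86 in the control clones and 8.46, 8.05 and 7.77 in the shECAD clones. The gap between the groups was 0.12, less than the range within the shECAD clones (0.68). The group means were 8.70 ± 0.14 and 8.09 ± 0.34 (SD), a log2 difference of -0.61 ± 0.19 (SE) with a 95% interval from -1.04 to -0.18. Without adjustment over genes this interval excludes 0, as it did for 3595 genes or 18% of all. Amt did not pass the adjusted threshold. Groups without overlap were found in 2 of 9 members, both lower in the shECAD clones, while 23.6% of all genes had such groups in either direction and 12.5% in that one. The other measured parts of the system did not pass the test either. Dld, the dihydrolipoamide dehydrogenase that the system shares with other mitochondrial complexes, read 8.46, 8.58 and 8.45 in the control clones and 7.98, 8.18 and 7.66 in the shECAD clones (log2 difference -0.55 ± 0.17 SE, limma adjusted p = 0.112). The groups of Dld did not overlap either, with a gap of 0.27, and its 95% interval without adjustment over genes ran from -0.93 to -0.18. Gcsh, the lipoyl carrier protein, had a log2 difference of -0.07 ± 0.24 (SE, limma adjusted p = 0.916).

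The hydroxymethyltransferases move a carbon from serine to folate, Shmt1 in the cytosol and Shmt2 in mitochondria. Shmt2 read 8.19, 8.69 and 8.81 in control clones 2, 3 and 4, against 7.84, 8.31 and 7.60 in shECAD clones 4, 8 and 9. shECAD clone 8 lay above control clone 2, so the groups overlapped by 0.12. The log2 difference was -0.65 ± 0.22 (SE), with a 95% interval from -1.14 to -0.15, and Shmt2 did not pass the adjusted threshold. Leaving out shECAD clone 8 gave -0.85 and leaving out shECAD clone 9 gave -0.49. Shmt1 read 7.62, 7.85 and 7.87 in the control clones and 7.51, 7.66 and 7.49 in the shECAD clones. Its values varied little in either group, and the log2 difference was -0.23 ± 0.15 (SE).

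Mthfd2, the mitochondrial dehydrogenase and cyclohydrolase that acts after Shmt2, read 8.48, 8.87 and 9.18 in the control clones and 8.21, 8.61 and 8.64 in the shECAD clones. The lowest control clone lay within the shECAD range, and the log2 difference was -0.36 ± 0.21 (SE, 95% interval -0.81 to 0.10). It was -0.54 without control clone 2, -0.19 without control clone 4 and 0.27 with the fibroblast and feeder marker mean as a covariate. Of its partners in the folate cycle, Mthfd1 had a log2 difference of -0.39 ± 0.20 (SE, limma adjusted p = 0.343) and Mthfd1l, the mitochondrial synthetase, one of -0.15 ± 0.16 (limma adjusted p = 0.697).

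The serine synthesis genes did not pass the test, and their first and second steps had groups that overlapped widely. Phgdh, the dehydrogenase that commits a glycolytic intermediate to serine, read 7.35, 8.13 and 8.30 in the control clones and 7.67, 8.19 and 8.22 in the shECAD clones. The log2 difference was 0.10 ± 0.25 (SE, 95% interval -0.46 to 0.66), and without control clone 2 it was -0.19. A further probeset that the annotation assigns to both Phgdh and Gm6756 was not used. Psat1, the aminotransferase of the next step, read 8.69, 9.43 and 9.44 in the control clones and 8.41, 9.17 and 9.21 in the shECAD clones. Each group held 1 low clone and a close pair of high ones. The log2 difference was -0.25 ± 0.26 (SE, 95% interval -0.84 to 0.33), and 0.01 without shECAD clone 4. Psph, the phosphatase of the last step, read 6.85, 6.97 and 7.27 in the control clones and 6.15, 6.77 and 6.69 in the shECAD clones (log2 difference -0.49 ± 0.20 SE, limma adjusted p = 0.227). Its groups did not overlap, and its 95% interval without adjustment over genes ran from -0.94 to -0.05. The interval of Psat1 includes falls of the size measured for Amt and Shmt2, and that of Phgdh does not. Neither shows that the levels were equal.

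**Figure D3:**
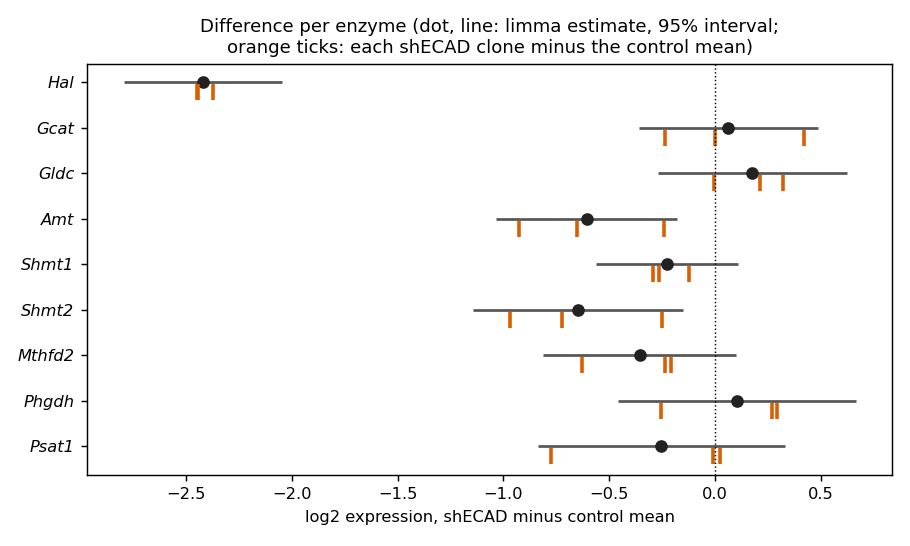
log2 difference of each enzyme, shECAD minus control, with the limma estimate as a dot, its 95% interval (not adjusted over genes) as a line, and each shECAD clone minus the control mean as an orange tick. Hal lies at -2.42, Amt and Shmt2 at -0.61 and -0.65 with intervals below 0, and the intervals of the other 6 include 0.

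5 of the 9 members shared both their lowest control clone and their lowest shECAD clone, a pattern noticed in the values and described here without a test. Control clone 2 was the lowest control and shECAD clone 4 the lowest shECAD clone for Gcat, Gldc, Mthfd2, Phgdh and Psat1, or 55.6% of the members. The same held for 9.09% of all genes. For Psat1, control clone 2 lay 0.75 below the mean of the other control clones and shECAD clone 4 lay 0.78 below the mean of the other shECAD clones. For Phgdh these gaps were 0.87 and 0.53, and for Mthfd2 0.55 and 0.41. Each gap exceeded the difference between the group means of the same gene. The other 4 members did not follow this order in full. Control clone 2 was the lowest control for Hal, Shmt1 and Shmt2 too, but shECAD clone 4 was not the lowest shECAD clone. In the shECAD clones the values of Hal lay within 0.08 of each other, Amt was highest in clone 4, and Shmt1 and Shmt2 were lowest in clone 9.

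Psat1, Phgdh, Shmt2 and Mthfd2 are known targets of ATF4, the transcription factor of the amino acid response, and other genes of that response were read beside them. Of 17 measured genes in the list of ATF4 and its other targets, 8 had control clone 2 and shECAD clone 4 lowest in their groups (47.1%), as had 8 of 19 amino acid transporter genes (42.1%) and 3 of 8 tRNA synthetase genes (37.5%). The share was 20% in both the folate cycle and the list of serine and glycine synthesis and breakdown (3 of 15 each), 12.5% in histidine handling (1 of 8) and 7.69% in the methionine cycle and transsulfuration (1 of 13). The 8 targets were Aldh18a1, Asns, Cebpg, Ddit4, Pck2, Slc7a11, Trib3 and Vldlr. Asns, the asparagine synthetase gene, read 10.76, 11.01 and 11.54 in control clones 2, 3 and 4, against 10.08, 10.72 and 10.81 in shECAD clones 4, 8 and 9. The transporters included Slc7a5 and Slc3a2, which together encode an exchanger of large neutral amino acids, and Slc1a4 and Slc1a5, which carry serine and other small neutral amino acids. Atf4 itself was low in control clone 2 (6.81, against 7.56 and 7.78 in control clones 3 and 4) but close in shECAD clones 4, 8 and 9, at 7.05, 7.09 and 6.96. Its log2 difference between the groups was -0.35 ± 0.23 (SE, limma adjusted p = 0.464). It was -0.635 without control clone 2 (limma adjusted p = 0.0918) and -0.15 without control clone 4. Control clone 2 also had the highest mean of the fibroblast and feeder markers among the controls (6.77). In shECAD clones 4, 8 and 9 this mean was 7.35, 7.67 and 7.39, and the median of the markers was 7.29, 7.48 and 7.13. The lowest shECAD clone was thus clone 4 by the mean and clone 9 by the median. The part of those markers in this pattern was not tested.

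**Figure D4:**
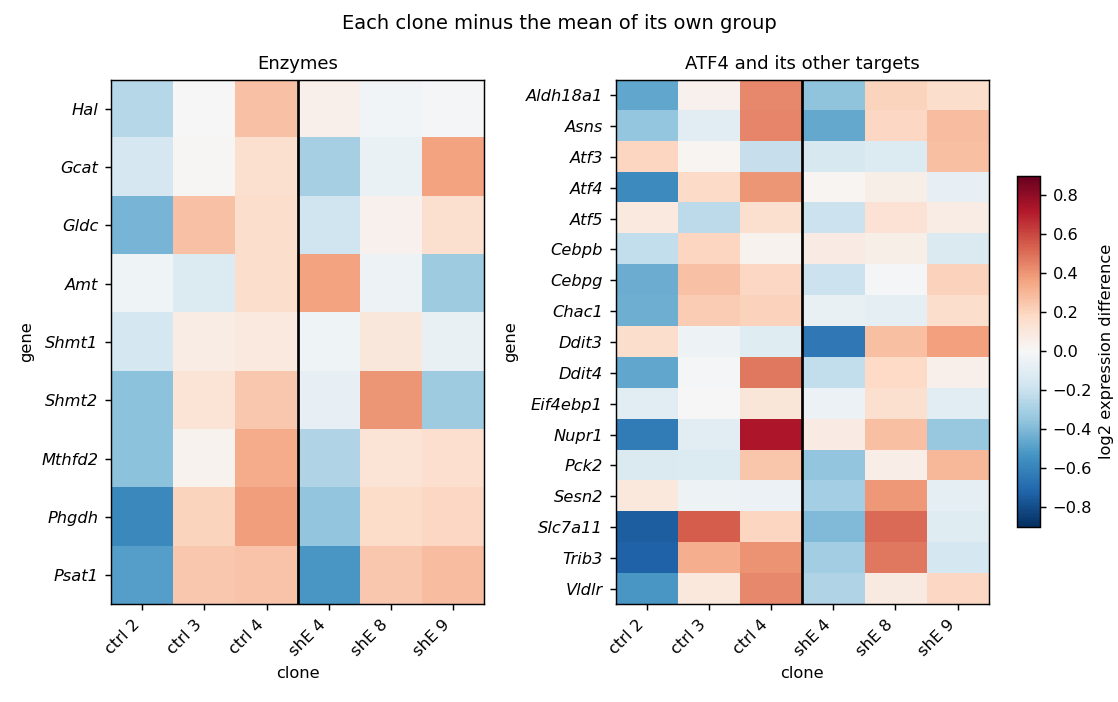
Each clone minus the mean of its own group, on the log2 scale, for the 9 enzymes and for 17 genes of the list of ATF4 and its other targets (blue below, red above the group mean, n = 3 per group). Columns ctrl 2 and shE 4 are blue for Mthfd2, Phgdh and Psat1 and for Asns, Trib3 and Slc7a11, while Hal is near 0 in all shECAD clones.

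The promoters of Hal and of 3 serine and folate genes are shown for these reasons: Hal carries the difference between the groups, and Mthfd2, Phgdh and Psat1 are among the 5 members with control clone 2 and shECAD clone 4 lowest. Gcat and Gldc, also among these 5, are not shown. Each line holds the 250 bases before the annotated start from RefSeq (GRCm38.p6), written in the direction of the gene, with CCAAT boxes on either strand in capitals (CCAAT, or ATTGG where the box lies on the other strand). Hal lies on the plus strand at chr10:93488518-93488767, Mthfd2 on the minus strand at chr6:83317605-83317854, Phgdh on the minus strand at chr3:98339970-98340219 and Psat1 on the minus strand at chr19:15925060-15925309, the first of 2 windows listed for it.
Hal: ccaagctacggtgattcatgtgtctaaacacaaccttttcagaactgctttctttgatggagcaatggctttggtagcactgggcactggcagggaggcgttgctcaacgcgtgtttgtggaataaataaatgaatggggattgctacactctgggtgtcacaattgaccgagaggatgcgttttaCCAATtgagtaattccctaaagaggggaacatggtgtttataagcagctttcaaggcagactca
Mthfd2: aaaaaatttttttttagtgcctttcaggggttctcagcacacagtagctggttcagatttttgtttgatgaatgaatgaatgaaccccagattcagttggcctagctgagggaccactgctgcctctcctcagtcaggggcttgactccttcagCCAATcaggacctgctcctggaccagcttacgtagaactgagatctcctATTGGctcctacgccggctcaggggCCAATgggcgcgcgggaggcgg
Phgdh: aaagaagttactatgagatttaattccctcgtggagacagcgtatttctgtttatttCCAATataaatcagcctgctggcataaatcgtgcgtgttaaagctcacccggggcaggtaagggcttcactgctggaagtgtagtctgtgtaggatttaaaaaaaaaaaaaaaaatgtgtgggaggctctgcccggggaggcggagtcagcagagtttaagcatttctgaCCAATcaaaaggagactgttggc
Psat1: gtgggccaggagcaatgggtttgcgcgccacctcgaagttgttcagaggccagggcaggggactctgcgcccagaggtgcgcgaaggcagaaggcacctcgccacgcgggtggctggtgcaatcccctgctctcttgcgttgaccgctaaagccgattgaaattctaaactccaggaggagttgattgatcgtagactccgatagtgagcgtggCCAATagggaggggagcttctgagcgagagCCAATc

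CCAAT boxes are bound by the trimeric factor NF-Y in many promoters. A window was found for 9 members, and 10 windows were read because Psat1 has 2. A CCAAT box stood in 7 of these 10, and in 33.8% of all 32851 windows of this length. Mthfd2 held 3 copies, and Phgdh and the first window of Psat1 held 2 each. They were the 3 member windows with 2 or more copies, which 10.1% of all windows have. Gcat and Gldc, of the same clone pattern, held 0 and 1 copies, and the second Psat1 window held 0. Whether the number of copies goes with that pattern was not tested. The composite element of ATF4 and C/EBP, searched on both strands as TGATGNAA, stood in 0 of the 10 windows and in 3.45% of all, and the E-box CACGTG in 0 and 6.02%. The TATA box, searched on both strands as TATAAA, stood in the windows of Hal, on the other strand, and of Phgdh, where it overlaps a CCAAT box, and in 12.4% of all windows. The Hal window held 6 CpG pairs, which is the median of all windows, against 16 in the first window of Psat1. A match is a description of the sequence and not a bound site.

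Of 105 other genes listed for the surrounding pathways, 95 were measured, and 3 differed at a limma adjusted p below 0.05, 2 higher and 1 lower. This is 3.16%, beside 3.12% of all 19938 genes (623 genes). The median log2 difference was -0.07 over these 95 genes and 0.03 over all genes. Among the 9969 genes at or above the median level it was -0.09. The 95 genes averaged from 6.67 to 6.91 in the clones, against 5.55 to 5.61 for all genes, so the brighter genes are nearer to them in level. The gene that fell was Pipox, which encodes the peroxisomal sarcosine oxidase, an enzyme that yields glycine. Pipox read 7.88, 7.62 and 7.50 in the control clones and 6.49, 6.89 and 6.45 in the shECAD clones. Every shECAD clone lay below every control clone, and the shECAD level was 2.08-fold lower (log2 difference -1.06 ± 0.18 SE, limma adjusted p = 0.0163). Sfxn3, which encodes a mitochondrial carrier of the sideroflexin family, to which the serine carrier Sfxn1 belongs, read 6.13, 5.77 and 5.59 in the control clones and 6.80, 6.65 and 6.61 in the shECAD clones. It rose 1.81-fold (log2 difference 0.86 ± 0.17 SE, limma adjusted p = 0.0308). Ddit4, a stress-induced inhibitor of mTOR signalling, read 6.48, 6.94 and 7.43 in the control clones and 7.84, 8.24 and 8.11 in the shECAD clones. It rose 2.17-fold (log2 difference 1.12 ± 0.23 SE, limma adjusted p = 0.0326). Pipox was no longer called once shECAD clone 4 was dropped (adjusted p = 0.0587), Sfxn3 was not called in any fit that dropped a clone other than control clone 2 (0.133 at most, without control clone 4), and Ddit4 was not called in any fit that dropped a clone other than control clone 4 (0.103 at most, without shECAD clone 8). The 3 calls became 0 without shECAD clone 4 and 1 without control clone 3 or shECAD clone 9. The fibroblast and feeder markers, at 5.77 to 6.77 in the control clones and 7.35 to 7.67 in the shECAD clones, moved with the groups here too, and with their mean as a covariate the log2 differences were -1.6 for Pipox, 0.34 for Sfxn3 and 1.97 for Ddit4. Over all genes 543, 271 and 146 calls were left without control clones 2, 3 and 4, against 231, 156 and 290 without shECAD clones 4, 8 and 9. Centring each array on its own median turned the split of the calls from 378 higher and 245 lower to 298 higher and 383 lower.

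By list, the calls were few in each direction. In serine and glycine synthesis and breakdown, 1 of 15 measured genes was lower, which was Pipox, and 0 were higher. In the folate cycle 0 of 15 were called. Of the 15, 12 lay below 0 (median -0.22), where 46.3% of all genes did. The median was also below 0 among the brighter genes of the array (-0.09), and whether the folate cycle differed from these was not tested. The gene with the greatest difference there was Mtfmt, whose product formylates the initiator tRNA of mitochondria with carbon from folate. It read 6.71, 6.997 and 6.90 in the control clones and 6.25, 6.60 and 6.14 in the shECAD clones (log2 difference -0.54 ± 0.17 SE, limma adjusted p = 0.125). In the methionine cycle and transsulfuration 0 of 13 were called (median -0.08), and Odc1, the ornithine decarboxylase of polyamine synthesis, had the greatest difference, at -0.81 ± 0.20 (SE, limma adjusted p = 0.0613). Among 8 tRNA synthetases for histidine, threonine, glycine and serine 0 were called, and Tars2, the mitochondrial threonine enzyme, had the greatest difference, at -0.62 ± 0.15 (SE, limma adjusted p = 0.054). Of 19 amino acid transporters 1 was higher, which was Sfxn3, and of 17 genes of the ATF4 list 1 was higher, which was Ddit4, while the median of that list was -0.29. An unadjusted p below 0.05 was found for 7 of 17 genes of the ATF4 list, 5 of 15 of serine and glycine synthesis and breakdown, 5 of 15 of the folate cycle, 4 of 13 of the methionine cycle, 5 of 19 transporters, 2 of 8 synthetases and 1 of 8 genes of histidine handling, beside 18% of all genes. In the fit of brighter genes alone, 2689 of 9969 genes had such a p. The counts of 0 for the methionine cycle and the synthetases depend on the setting. Cth, Mtr and Odc1 of the former and Tars2 of the latter were called lower after centring on array medians, among brighter genes alone, under a trend with robust prior and with array weights. Of the 19 transporters, 10 lay below 0. Slc1a5 among them (log2 difference -1.04 ± 0.31 SE, limma adjusted p = 0.103) was called with array weights and without control clone 2.

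**Figure D5:**
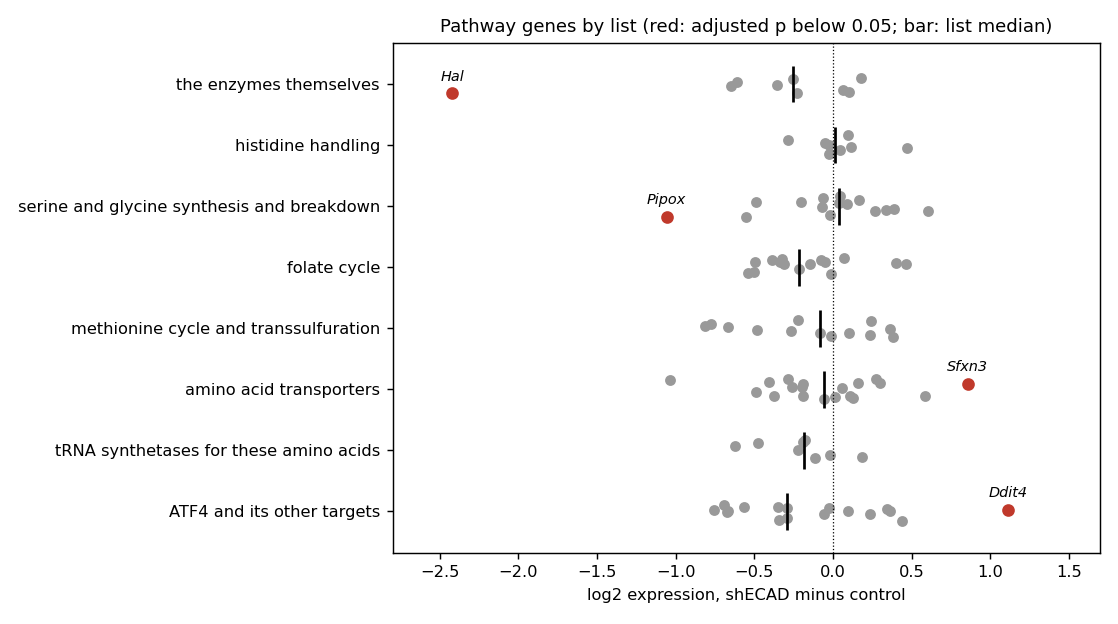
log2 difference, shECAD minus control, of each measured gene in the enzyme group and in the 7 surrounding lists, with genes at a limma adjusted p below 0.05 in red and list medians as bars. Hal (-2.42), Pipox (-1.06), Sfxn3 (0.86) and Ddit4 (1.12) are the red points, and the remaining genes lie on both sides of 0.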

How the data were processed

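The members and lists were chosen with earlier results of these data known. The deposited table holds 1 log2 expression value per probeset and array; the submitters' processing notes name RMA and Partek as the tools of the authors. Which versions, settings and build they used is not given in the sources used here. RMA summarises the probes of a probeset on the log2 scale, and low values may be compressed towards background. RNA (100 ng per clone) was labelled with biotin, per the labels' protocols.

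Values were used as deposited. Of 28853 probesets, 21789 have 1 gene symbol in the platform annotation, 1621 several and 5443 none here; 21698 matched RefSeq by Entrez identifier. The brightest probeset stood for each of 999 genes with several, leaving 19938. Groups were compared with limma 3.58.1 in R 4.3.3 (lmFit, eBayes, no covariate), with Benjamini-Hochberg adjustment over all genes. The fit was tested on simulated data, where it recovered 6% of log2 changes of 0.5, 78% of 1 and 100% of 2. A gene that did not pass may therefore still differ by a log2 difference of this smaller size. The number of arrays limits the precision.

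All members are named; of each other list, up to 5 called genes or else the gene with the greatest difference, plus Atf4, Psph, Gcsh, Dld, Mthfd1 and Mthfd1l. The neighbours of Hal, Apoa2, Alb, Uroc1, Ftcd, Amdhd1, Asns and the genes of the pattern between clones were added after their values were seen. The alternatives were centring, quantile normalization, brighter genes, probeset means, every probeset, a trend with robust prior, no moderation, array weights, a threshold of 0.1, the fibroblast covariate and leaving out each clone.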

Additional observations from a re-analysis of the deposited data

How the results depend on the processing

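Hal kept its direction under every alternative run, with log2 differences from -2.55 to -1.86, and was the 1 member called except without variance moderation and with the fibroblast covariate, where limma called 0 members (2 and 1 had an unadjusted p below 0.05). Across all genes the calls numbered 3 without moderation, 0 with the covariate (821 at an unadjusted p below 0.05; the median SE rose from 0.176 to 0.395), 1067 with array weights, 1278 at an adjusted p below 0.1, and from 146 to 543 with a clone left out. Among the other pathway genes they numbered 7 after centring, among brighter genes alone and under a trend with robust prior, 5 with every probeset on its own, 9 with array weights or at 0.1, from 0 to 3 with a clone left out, and 0 without moderation or with the covariate (23 and 7 at an unadjusted p below 0.05). Signs turned for Mthfd2 (0.27) and Psat1 (0.30) with the covariate, for Gcat (-0.082) and Phgdh (-0.065) with array weights, for Gcat with centring (-0.03), for Gcsh with array weights (0.011), with the covariate (0.51) and with a clone left out (from -0.25 to 0.20; 0.077 without control clone 4), and with the covariate for Atf4 (0.59) and Mthfd1l (0.11). With a clone left out they turned for Gcat (-0.12 without shECAD clone 9 and -0.01 without control clone 2), Gldc (-0.03) and Phgdh (-0.19) without control clone 2, and Psat1 (0.01) without shECAD clone 4. With the covariate the enzymes other than Hal ran from -0.32 (Amt) to 0.93 (Phgdh). The cause of these shifts was not tested. No paired analysis was possible because the clones are separately picked colonies, and the clone number 4 found in both groups does not make a pair. With 3 clones per group the number of arrays limits what can be called, and the background signal is unknown.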
